A study of Drosophila melanogaster with 18 samples.

Results

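All 12 arrays of 4 heterochromatin mutant genotypes were compared with all 6 wildtype arrays, which together are the 18 arrays of the series. Membership came from the genotype label alone. The pooled change of a gene was the mean of the 4 genotype means minus the wildtype mean, so that each genotype carried equal weight. The samples were whole Drosophila melanogaster larvae, collected as first instars about 48 hours after egg laying from cultures at 25 °C, with 200 larvae pooled for each replicate. The mutants, with 3 biological replicates (A to C) each, were HP1a04/HP1a05, the double mutant HP1a04 PofD119/HP1a05 PofD119, the homozygote Setdb110.1/Setdb110.1, and larvae with the allele evo of Su(var)3-9 over its allele 06. There were 6 replicates of wildtype (A to F). HP1a is a heterochromatin protein, Setdb1 and Su(var)3-9 are histone H3 lysine 9 methyltransferases, and Pof coats chromosome 4. The labels give no strain for the wildtype and do not say how mutant larvae were picked out. Because 2 of the 4 genotypes carry the same HP1a alleles, the pooled change leans on those alleles.

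Insect larvae grow by moulting. At each moult the epidermis secretes a new cuticle of chitin and cuticle proteins under the old one, while a pulse of the steroid 20-hydroxyecdysone, the level of juvenile hormone and a final set of ecdysis peptides time the steps. Between moults the larva feeds, and its midgut secretes trypsin-like proteases, lipases and glycosidases into a lumen lined by the peritrophic matrix. A whole-larva array reads all of these tissues at once, so fewer cells of a type and less RNA per cell cannot be told apart.

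The wildtype and mutant arrays also separated on RNA that does not come from the larvae. Affymetrix poly-A controls are bacterial transcripts that the standard procedure adds before labelling. For one of them, thr, the 5' signal minus the 3' signal was -0.51 ± 0.12 (SD, n = 12, from -0.73 to -0.34) on mutant arrays and -2.94 ± 0.18 (n = 6, from -3.20 to -2.71) on wildtype arrays. This difference of 2.43 gave an exact two-sided permutation p of 0.000108, the smallest that 18564 splits allow, and 0.000353 after Benjamini-Hochberg adjustment over 36 control measures. The same measure differed by 1.36 for dap and by 1.30 for phe, each with the same exact p, and by 0.20 for lys (exact p = 0.0893). The 9 hybridisation control probe sets were higher on mutant arrays by 0.30 to 0.86, and for 5 of them every mutant array lay above every wildtype array.

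The 3' and 5' probe sets of 18S ribosomal RNA separated the arrays as well, but the middle probe set did not. The 3' probe set of 18S rRNA read 9.81 ± 0.59 (n = 12) in mutants and 12.30 ± 0.09 (n = 6) in wildtype, again with an exact permutation p of 0.000108. The 5' probe set ran from 7.09 to 10.26 in mutants and from 10.67 to 11.26 in wildtype. The middle probe set ran from 10.04 to 12.81 in mutants and from 11.42 to 11.76 in wildtype (exact permutation p = 0.0581). Among fly transcripts used as controls, the 3' probe sets of eIF-4a, ACTIN and GAPDH differed by 0.13, 0.06 and 0.03 and their 5' probe sets by 0.62, 0.41 and -0.08. The 5' signal minus the 3' signal was thus higher on mutant arrays by 0.49 for eIF-4a (adjusted exact permutation p = 0.00265) and by 0.35 for ACTIN (adjusted p = 0.0232, exact), the same direction as for the bacterial controls, and differed by -0.11 for GAPDH (adjusted p = 0.116, exact). The labels name no batch. On the 5' minus 3' measures of thr, dap and phe, every wildtype array lay apart from every mutant array. Whether any batch held both kinds is not known, so no value within a batch could be had. Labelling, hybridisation and genotype cannot be told apart in any pooled value given here. Every result below carries this limit.

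**Figure D1:**
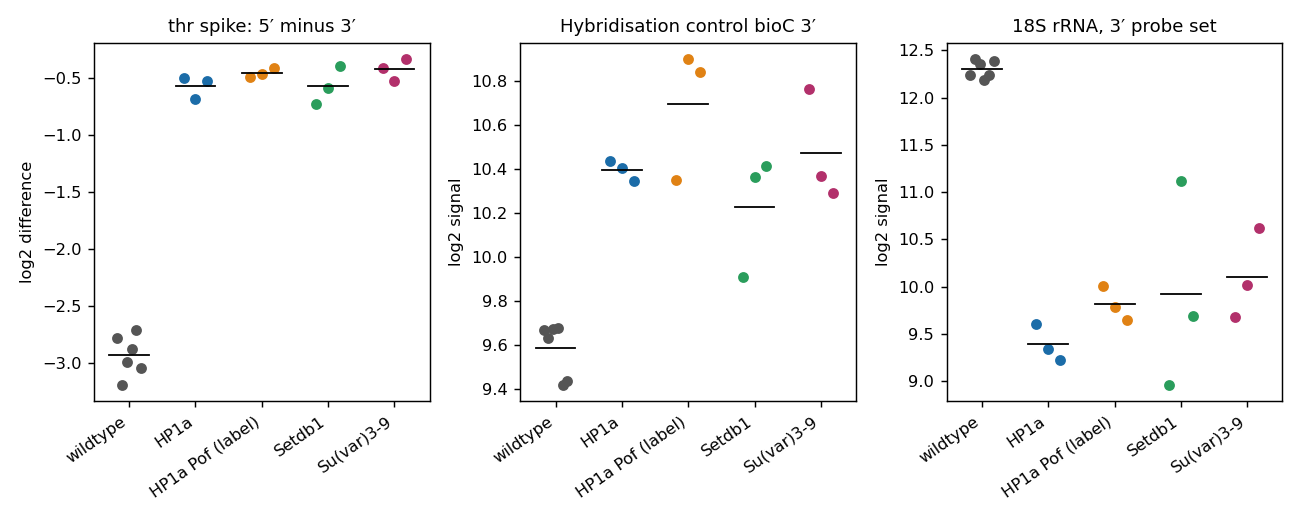
Control measures on each of the 18 arrays, with 1 point per array, a line at each group mean and genotype on the x axis. The y axes give the thr 5' minus 3' difference (log2), the bioC 3' hybridisation control (log2 signal) and the 18S rRNA 3' probe set (log2 signal); on all 3 the 6 wildtype arrays lie to one side of the 12 mutant arrays.

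Among the targeted genes, those of HP1a and Pof were read; Setdb1 (egg) and Su(var)3-9 had no probe set named for them in the annotation used here and were not analysed here. The gene that encodes HP1a spanned 10.13 to 10.27 (median 10.22) on wildtype arrays and 9.40 to 10.23 (median 9.78) on mutant arrays. It fell by 0.72 in HP1a mutants and by 0.68 in the arrays labelled HP1a Pof, and differed by -0.07 in Setdb1 and -0.09 in Su(var)3-9 mutants. Pof went against its label: it differed by 0.83 from wildtype in the arrays labelled HP1a Pof and by -0.44, -0.50 and 0.12 in HP1a, Setdb1 and Su(var)3-9 mutants, and its pooled change was 0.00 ± 0.13 (SE). The probe set for Pof may sit outside the changed part of the gene, which was not tested. Without the arrays labelled HP1a Pof, 1752 genes were called higher and 3609 lower.

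Of 8194 genes bright enough to be tested, limma called 1988 (24.3%) higher and 3603 (44%) lower in the pooled mutants at a Benjamini-Hochberg adjusted p under 0.05. A change common to every genotype was less frequent. Only 670 genes (8.18%) were called higher in all 4 genotypes, and 1851 (22.6%) lower. The 4 contrasts share the same wildtype arrays, so these counts are descriptions and not independent repeats. The calls in single genotypes made up 23.5%, 25%, 17.3% and 16.3% of tested genes for rises and 35.6%, 35.7%, 35.2% and 47.7% for falls, in HP1a, HP1a Pof, Setdb1 and Su(var)3-9 mutants. On 551 genes (6.72%) every mutant array lay above every wildtype array, and on 1675 (20.4%) every one lay below.

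The sizes were mostly small. The median gene changed by -0.10 on the log2 scale, and 426 genes (5.2%) were called higher and 477 (5.82%) lower by at least 1, and 315 (3.84%) and 425 (5.19%) of the tested genes also had the call in all 4 genotypes. Of the 903 genes called with a change of at least 1, 498 (55.1%) also differed among the 4 mutant genotypes by limma's moderated F test, against 4387 (53.5%) of all tested genes. Opposite calls in different genotypes were made for 361 genes (4.41%). The excess of falls over rises depended on scaling. Rises made up 35.6% of the calls, and 50.5% (2858 higher, 2805 lower) when each array was centred on the median of its tested genes. With genotype as a random block, 430 genes were called higher and 1349 lower. That fit lets arrays of the same group correlate, with a single correlation for all genes. Arrays remain its observations, so it is not a test with genotypes as the repeats. Precision is limited throughout by how few arrays there are, and the p-values measure only the spread between these replicates.

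Su(var)3-9 arrays B and C stood apart in a few genes below the filter. Of 3700 genes below the filter, 8 had an array at log2 8 or more; the highest array was Su(var)3-9 B for 4 of them (CG11349, CG31226, CG9920 and TrxT) and C for the other 4. Lsp2, a larval serum protein of the late third-instar fat body, read 11.57 on Su(var)3-9 array C and at most 5.96 on the other arrays. Fbp2, another late-larval fat body gene, read 11.15 on array C and at most 5.26 elsewhere. Without arrays B and C, 2143 genes were called higher and 3526 lower, and 579 and 1765 in all 4 genotypes.

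The 10 largest rises and falls were picked from genes called in all 4 genotypes with no overlap of mutant and wildtype arrays. Their separation was therefore set by the choice. The 10 largest rises shared by all genotypes started from wildtype medians of 4.35 to 8.86, on arrays whose own medians were near 6. CG42816, an uncharacterised gene on chromosome arm 3L, spanned 4.08 to 4.61 (median 4.35) on wildtype arrays and 9.22 to 11.48 (median 10.54) on mutant arrays. The ranges were more than 4 log2 units apart. Its pooled rise was 6.12 ± 0.28 (SE, limma adjusted p = 4.55e-11), with 5.82, 6.30, 6.45 and 5.90 in HP1a, HP1a Pof, Setdb1 and Su(var)3-9 mutants. CG43117 rose by 5.83 ± 0.55, from a wildtype median of 5.77 to a mutant median of 12.24. The rise of nol was 5.13 ± 0.28 and that of CG14851 4.46 ± 0.65, although CG14851 was no longer called with genotype as a random block (adjusted p = 0.053).

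Genes with known products were among these rises. Drsl2, which encodes a drosomycin-like peptide, spanned 4.61 to 5.23 (median 4.91) in wildtype and 8.86 to 10.69 (median 9.34) in mutants. No mutant array came within 3 log2 units of a wildtype array, and the pooled rise was 4.65 ± 0.21 (limma adjusted p = 3.79e-11). Arc1, a capsid-forming protein related to retrotransposon Gag, had the smallest standard error of the 10 largest rises: 8.65 to 8.88 (median 8.76) in wildtype against 12.12 to 12.91 (median 12.79) in mutants, a rise of 3.90 ± 0.07. The cuticle gene Cpr67Fa2 rose by 4.39 ± 0.23 and AANATL4, of the arylalkylamine N-acetyltransferase family, by 3.54 ± 0.10. CG11300 rose by 4.05 ± 0.11, and CG32694 by 3.63 ± 0.25 on its brightest probe set or by 2.32 on the mean of its probe sets.

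The 10 largest shared falls started from wildtype medians of 9.25 to 12.38. Zip42C.2, a zinc transporter of the Zip family, spanned 10.29 to 10.91 (median 10.64) in wildtype and 4.88 to 8.98 (median 5.32) in mutants. All mutant arrays were lower, but unevenly: the gene fell by 5.47, 5.07 and 5.47 in HP1a, HP1a Pof and Setdb1 mutants and by 1.88 in Su(var)3-9 mutants. Its pooled change was -4.47 ± 0.16 (limma adjusted p = 1.94e-12). Cyp12d1-d, a mitochondrial cytochrome P450, followed the same pattern, with falls of 4.95, 5.22, 5.39 and 0.66, and had the largest F among the genotypes of all genes that changed by at least 1 (limma adjusted p = 2.81e-13). BomS4, a short Bomanin peptide of the humoral immune response, fell by 3.42 ± 0.10. In the list of antimicrobial and Bomanin peptides it was the 1 gene of 8 called lower, and 4 were called higher (median 0.46). Of all tested genes 44% were called lower and 24.3% higher. In that list 1 gene was called higher in all 4 genotypes, and 1 with genotype as a random block. The cuticle gene Cpr47Ed was also among the 10 largest falls. The other 6 of these, which have no name beyond their CG number, changed by -3.60 for CG16898, -3.18 for CG10814, -3.10 for CG43677, -3.01 for CG11893, -2.97 for CG7248 and -2.94 for CG6839.

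**Figure D2:**
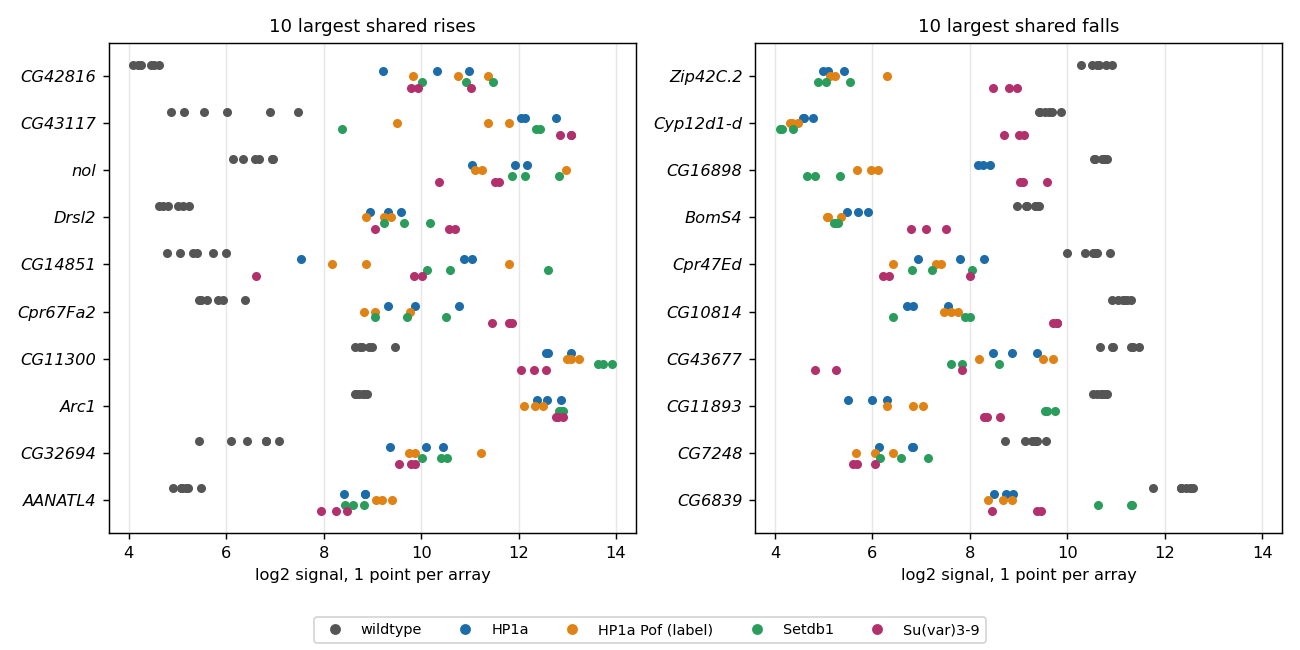
Log2 signal (x axis) of the 10 largest shared rises and the 10 largest shared falls (y axis), with 1 point per array and colour for genotype. The genes were picked from those with no overlap of mutant and wildtype arrays, so that separation was set by the choice. For Zip42C.2 and Cyp12d1-d the Su(var)3-9 arrays lie nearest to wildtype.

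Some changes were nearly the same size in every genotype. Among rises of at least 1, Kr, a gap gene of the early embryo, rose by 1.58, 1.48, 1.47 and 1.55 in HP1a, HP1a Pof, Setdb1 and Su(var)3-9 mutants, from a wildtype range of 4.81 to 5.35 to a mutant range of 6.16 to 6.82. The chitin-binding protein gene obst-A rose by 1.42, 1.38, 1.33 and 1.46. Among falls, alphaTry, a gut trypsin, fell by 1.81, 1.91, 1.97 and 1.90, and CG13659 by 1.82, 1.88, 1.87 and 1.79. These genes were picked for evenness, so their small spread is a description. Pdcd4, an inhibitor of translation in mammals, fell by 1.08 ± 0.10.

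Cuticle protein genes rose as a group. Of 84 tested members, 68 were called higher and 8 lower, against 24.3% and 44% of all tested genes, and their median change was 1.97 against -0.10. In 49 the rise was called in all 4 genotypes, against 8.18% of all tested genes. For 47 every mutant array lay above every wildtype array, against 6.72%. Median changes were 1.87, 1.86, 1.94 and 2.002 in HP1a, HP1a Pof, Setdb1 and Su(var)3-9 mutants. The mean of the list ranged from -0.29 to 0.38 around the wildtype mean on wildtype arrays and from 1.02 to 2.24 on mutant arrays, which did not overlap. Taking genotype as a random block, 37 members were called higher, and without Su(var)3-9 arrays B and C again 68. With no filter on dim genes 13 members were called lower, and the list median was 1.57.

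Most tested members of the Lcp, Ccp84A, Tweedle and Cpr families were called higher, against 24.3% of all tested genes. Of the 2 other tested cuticle protein genes 1 was. All 7 tested Lcp genes and all 3 of the Ccp84A cluster were called higher, with medians of 3.05 and 2.32. Of 23 Tweedle genes 21 were called higher (median 2.18) and of 49 Cpr genes 36 (median 1.61). The members of the Lcp and Cpr families carry chitin-binding domains, and neighbouring copies can share probes. Lcp65Ad spanned 5.76 to 7.82 (median 7.52) in wildtype and 9.77 to 11.87 (median 10.36) in mutants, a rise of 3.50 ± 0.37. Cpr62Bc rose by 3.50 ± 0.34. The rise was not shared by every genotype for Cpr49Ad, which changed by 5.35, 4.40 and 5.44 in HP1a, HP1a Pof and Su(var)3-9 mutants and by -0.14 in Setdb1 mutants.

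The 8 cuticle protein genes called lower all belonged to the Cpr family. Cpr47Ed spanned 9.99 to 10.89 (median 10.55) in wildtype and 6.21 to 8.28 (median 7.27) in mutants, and fell by 3.26 ± 0.27 (limma adjusted p = 3.29e-08). Its changes were -2.82, -3.45, -3.13 and -3.64 in HP1a, HP1a Pof, Setdb1 and Su(var)3-9 mutants. Cpr12A, Cpr47Eb and Cpr49Ac fell by 1.53, 1.18 and 1.01. The remaining members, Cpr49Ag, Cpr67B, Cpr73D and Cpr78E, fell by 0.74 to 0.16. Cpr47Ec and Cpr47Eg, named for the same cytological region as Cpr47Ed, rose by 2.66 and 2.22.

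Of 34 tested chitin genes 24 were called higher and 6 lower (median 0.50), against 24.3% and 44% of all tested genes. Under the random block the counts were 12 and 5, beside 430 and 1349 of all 8194 tested genes. The chitin deacetylase gene verm spanned 8.97 to 9.26 (median 9.11) in wildtype and 11.30 to 12.74 (median 11.97) in mutants, with a rise of 2.83 ± 0.16 that was 2.76, 2.97, 2.93 and 2.67 by genotype. Its partner serp rose by 1.76 ± 0.15, Cda4 by 2.11, the chitin synthase gene kkv by 0.79 and mmy, which makes the precursor UDP-N-acetylglucosamine, by 0.92. Among chitinases, which digest chitin, the signs differed: Cht5 and Cht10, of the moulting fluid, fell by 0.66 and 1.71, and Cht4 and Cht9 by 1.81 and 2.14, while Cht7 rose by 1.64. Cht6 rose by 2.47 on its brightest probe set and by 1.04 on the mean of its probe sets.

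Of 17 tanning genes, 9 were called higher and 6 lower (median 0.61). The shares over all tested genes, which also stand beside the Osiris count below, were 24.3% and 44%. Median changes of the tanning genes were 0.41, 0.45, 0.63 and 0.04 in HP1a, HP1a Pof, Setdb1 and Su(var)3-9 mutants. The mean of the list ran from -0.10 to 0.11 on wildtype arrays and from 0.03 to 0.66 on mutant arrays, which overlapped. The pigment gene y spanned 6.47 to 7.68 (median 7.39) in wildtype and 9.01 to 10.98 (median 9.68) in mutants, a rise of 2.69 ± 0.32. Ddc, which makes dopamine for sclerotisation, rose by 1.76 ± 0.22, and Pu and e, which act in the same pathway, by 1.01 and 0.97. The phenoloxidase precursors PPO1 and PPO2, made by crystal cells of the blood, fell by 1.05 and 0.86. Under the random block, 5 tanning genes were called higher and 5 lower. Of 14 Osiris genes 8 were called higher (median 0.83) but 1 in all 4 genotypes, Osi2, which rose by 2.47 ± 0.24, and 1 with genotype as a random block. With no filter on dim genes the tanning and Osiris medians were 0.11 and 0.13.

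**Figure D3:**
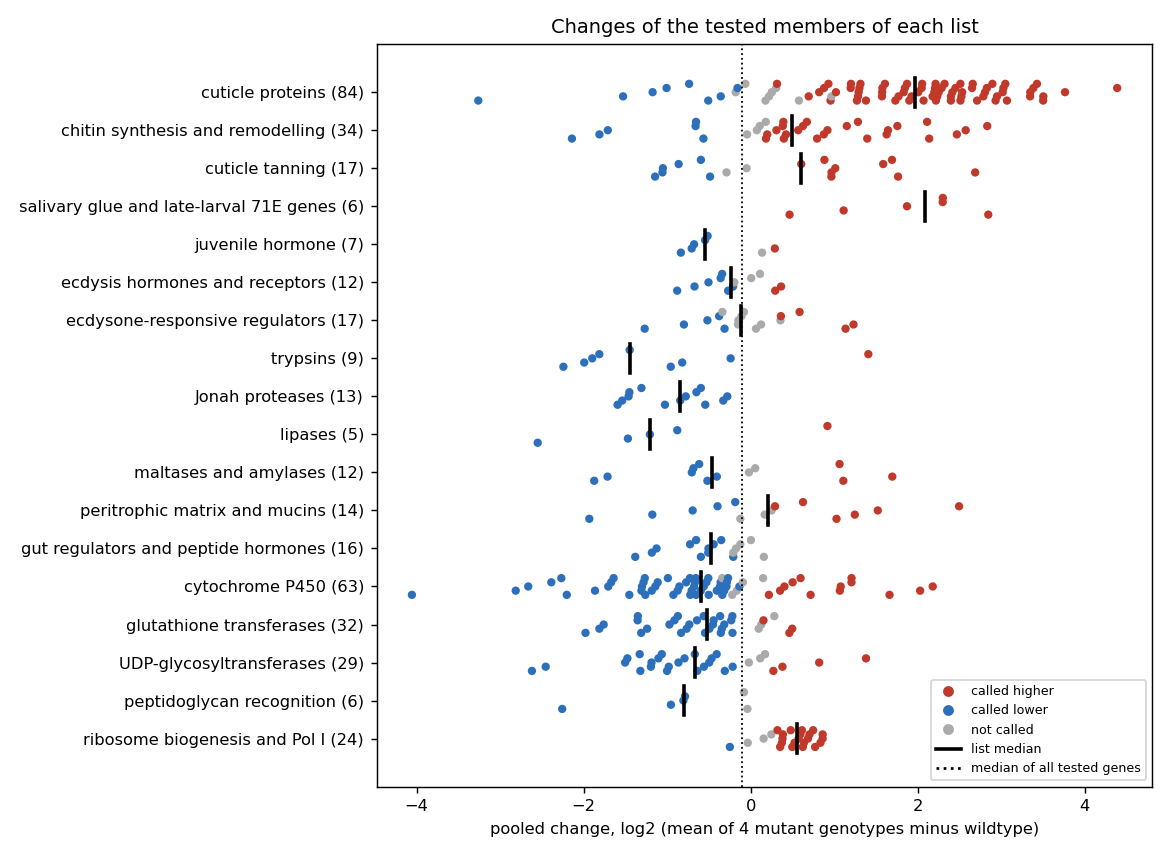
Pooled log2 change (x axis) of each tested member of 18 gene lists (y axis, number of members in brackets), with colour for the limma call. Bars mark list medians, the dotted line the median of all tested genes (-0.10); cuticle proteins are centred near 1.97 and trypsins near -1.45.

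Genes of the moulting hormones did not move as 1 group. Of 17 ecdysone-responsive regulators 4 were called higher and 5 lower, against 24.3% and 44% of all tested genes. Their median was -0.11 next to -0.10 for all tested genes. EcR, the ecdysone receptor, spanned 5.92 to 6.58 (median 6.32) in wildtype and 7.001 to 8.01 (median 7.48) in mutants and rose by 1.14 ± 0.11 (limma adjusted p = 1.44e-07). Cyp18a1, the enzyme that inactivates ecdysone, rose by 1.21 ± 0.12, with all mutant arrays above wildtype. The ecdysone-inducible genes ImpE2 and ImpE3 went opposite ways, with changes of 1.23 ± 0.29 and -1.27 ± 0.19. Hr3, a nuclear receptor induced by ecdysone, fell by 0.80 ± 0.11. Under the random block, 1 member of the list was called higher and 0 lower by limma.

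Ecdysone synthesis genes, the Halloween genes among them, had a median of -0.005, with 2 of 8 called higher and 2 lower. Of 7 juvenile hormone genes 5 were called lower and 1 higher (median -0.55), against 44% and 24.3% of all tested genes. Kr-h1, the transcription factor that juvenile hormone induces, fell by 0.84 ± 0.11, and every mutant array (6.58 to 7.75) lay below every wildtype array (7.99 to 8.36). Fpps, in the pathway that supplies the hormone's precursor, fell by 0.71 ± 0.06 and jhamt, its methyltransferase, by 0.55 ± 0.12. With genotype as a random block, ImpE2, ImpE3, Hr3 and jhamt were no longer called (adjusted p = 0.236, 0.0597, 0.0811 and 0.2), and 2 juvenile hormone genes were. The juvenile hormone median was -0.24 with no filter.

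Of 12 ecdysis genes 7 were called lower and 2 higher (median -0.24), against 44% and 24.3% of all tested genes. After centring 5 were called lower. ETH, the ecdysis-triggering hormone of the epitracheal Inka cells, spanned 8.04 to 8.28 (median 8.23) in wildtype and 6.50 to 7.83 (median 7.42) in mutants and fell by 0.88 ± 0.10. The fall was 0.51, 0.86, 0.71 and 1.43 in HP1a, HP1a Pof, Setdb1 and Su(var)3-9 mutants and differed among them (adjusted p of limma's F test 0.00144). Pal1, an amidating enzyme for peptide hormones, fell by 0.67 ± 0.06. Under the random block 3 ecdysis genes were called lower.

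Salivary and late-larval genes were highest on the Su(var)3-9 arrays and next highest on HP1a arrays B and C. All 6 tested members of the glue list were called higher (median 2.09), against 24.3% of all tested genes. Only 2 of the 6 were called higher in all 4 genotypes, against 8.18% of all tested genes. For 2 every mutant array lay above every wildtype array, against 6.72%. Of the 24 members of the list, 18 were not tested or not on the array. The medians were 2.40, 0.53, 0.40 and 3.75 in HP1a, HP1a Pof, Setdb1 and Su(var)3-9 mutants. The mean of the list lay 2.23 and 2.76 above the wildtype mean on HP1a arrays B and C, 0.84 above it on HP1a array A, and 3.11 to 3.89 above it on the Su(var)3-9 arrays. ng4 rose evenly, by 3.06, 2.52, 3.02 and 2.78. In contrast ng1, ng2 and ng3 rose by 4.73, 5.61 and 6.03 in Su(var)3-9 mutants and by 2.47, 2.64 and 2.34 in HP1a mutants, and changed by 0.47, 0.40 and 0.58 in HP1a Pof and by -0.19, 0.55 and 0.25 in Setdb1 mutants. Without the Su(var)3-9 genotype ng3 changed by 1.06 and ng1 by 0.92, and neither was called (adjusted p = 0.0536 and 0.166), and the median of the list was 1.02. The median was 0.002 with no filter, and under the random block none of ng1, ng2 and ng3 was called (adjusted p = 0.41, 0.29 and 0.307). No tested gene came from the list of larval serum and fat body storage proteins.

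**Figure D4:**
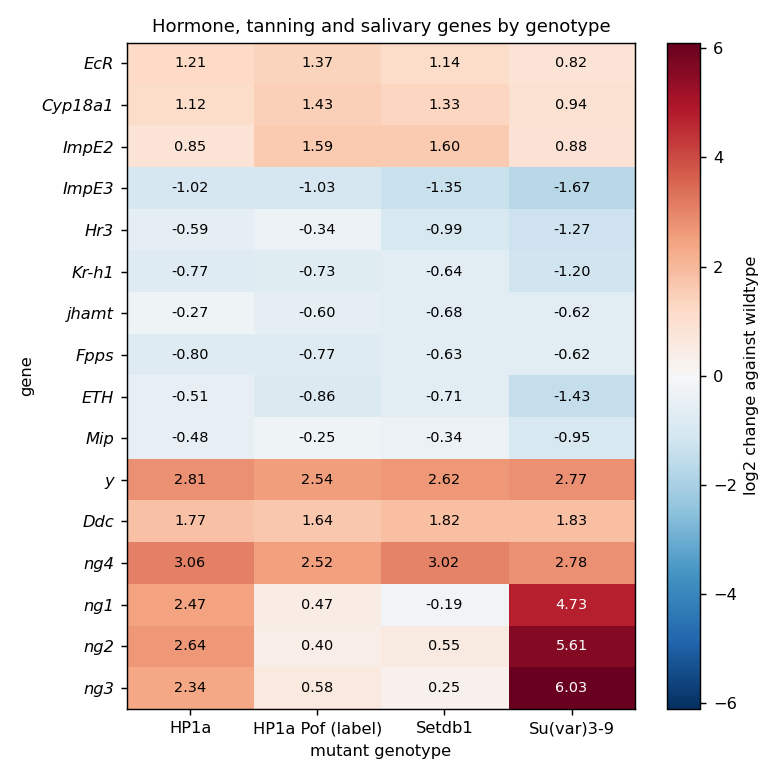
Log2 change against wildtype (colour and printed value) of 16 hormone, tanning and salivary genes (rows) in each mutant genotype (columns). EcR, y, Ddc and ng4 are higher and Kr-h1 and ETH lower in all 4 columns, while ng1 to ng3 range from -0.19 to 6.03.

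Digestive enzymes fell as a group, though not evenly across the genotypes. Over trypsins, Jonah proteases, maltases and amylases, lipases and lysozymes, 33 of 41 tested genes were called lower and 5 higher. The shares over all tested genes were 44% and 24.3%, which also stand beside the counts of single lists below. The median was -0.82 against -0.10 for all tested genes. In 21 of the 41 the fall was called in all 4 genotypes, against 22.6% of all tested genes. Differences among the mutant genotypes were called for 34 of the 41, against 53.5% of all tested genes. All 13 Jonah proteases were called lower (median -0.84), and the mean of that list ran from -0.05 to 0.10 on wildtype arrays and from -1.39 to -0.41 on mutant arrays, with no overlap. Under the random block, 9 of the 13 were still called lower. Jon74E spanned 12.56 to 13.002 (median 12.82) in wildtype and 10.28 to 12.01 (median 11.23) in mutants and fell by 1.59 ± 0.11.

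Of 9 trypsins 8 were called lower (median -1.45). kappaTry spanned 9.94 to 10.34 (median 10.26) in wildtype and 7.35 to 9.28 (median 7.76) in mutants and fell by 2.24 ± 0.09. lambdaTry and iotaTry fell by 1.99 and 1.81. The exception was betaTry, which rose by 1.41 while alphaTry fell by 1.90; these 2 trypsins are close copies, so the split of signal between their probe sets is uncertain. Median falls of the trypsins were 1.80, 1.91, 0.62 and 1.42 in HP1a, HP1a Pof, Setdb1 and Su(var)3-9 mutants.

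Of 5 lipases 4 were called lower, all 4 in every genotype and with all mutant arrays below all wildtype arrays, and 1 of the 5 differed among the genotypes. The gene that differed, mag, a gut lipase of the acid lipase family, fell by 2.55 ± 0.15, by 2.68, 2.84, 4.04 and 0.63 by genotype. Of 12 maltases and amylases 7 were called lower and 3 higher. Mal-A8 fell by 1.87 ± 0.19, and Mal-A1 rose by 1.11 ± 0.21 but was no longer called with genotype as a random block (adjusted p = 0.201), where 1 member of this list was called lower.

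Several genes that define the midgut fell. GATAe, the GATA factor of the endoderm, spanned 8.80 to 9.09 (median 8.93) in wildtype and 7.36 to 8.32 (median 7.87) in mutants and fell by 1.13 ± 0.08 (limma adjusted p = 6.93e-09). mex1, an enterocyte gene, fell by 1.18 ± 0.09, and Dh31, an enteroendocrine diuretic hormone, by 1.38 ± 0.08. In all, 11 of 16 gut regulators and peptide hormones were called lower and 0 higher by limma (median -0.47), 4 of them with genotype as a random block. Other peptides of the list that are also made in the nervous system fell: AstC by 0.60, NPF by 0.65 and Mip by 0.51. The genes dve and cad, which pattern the midgut, changed by 0.00 and -0.18 and were not called. Vacuolar ATPase subunits were nearer to the background: of 20, 11 were called lower and 3 higher, against 44% and 24.3% of all tested genes, or 6 and 6 after centring and 2 and 1 under the random block. Mip was not called under that block (adjusted p = 0.0741).

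The peritrophic matrix list was split, with 6 of 14 called higher and 5 lower, or 4 and 2 under the random block. Of all tested genes 24.3% were called higher and 44% lower. Peritrophin-A, a chitin-binding protein, rose by 1.25 ± 0.17 and Muc91C by 2.49 ± 0.24, while Muc68E fell by 1.93 ± 0.10. All mutant arrays lay beyond all wildtype arrays for these 3 genes. Of 6 peptidoglycan recognition genes 4 were called lower. PGRP-SC2, an amidase that degrades bacterial peptidoglycan in the gut, spanned 12.49 to 12.70 (median 12.61) in wildtype and 9.02 to 11.83 (median 10.33) in mutants and fell by 2.26 ± 0.07. PGRP-LB and PGRP-LE fell by 0.95 and 0.81.

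**Figure D5:**
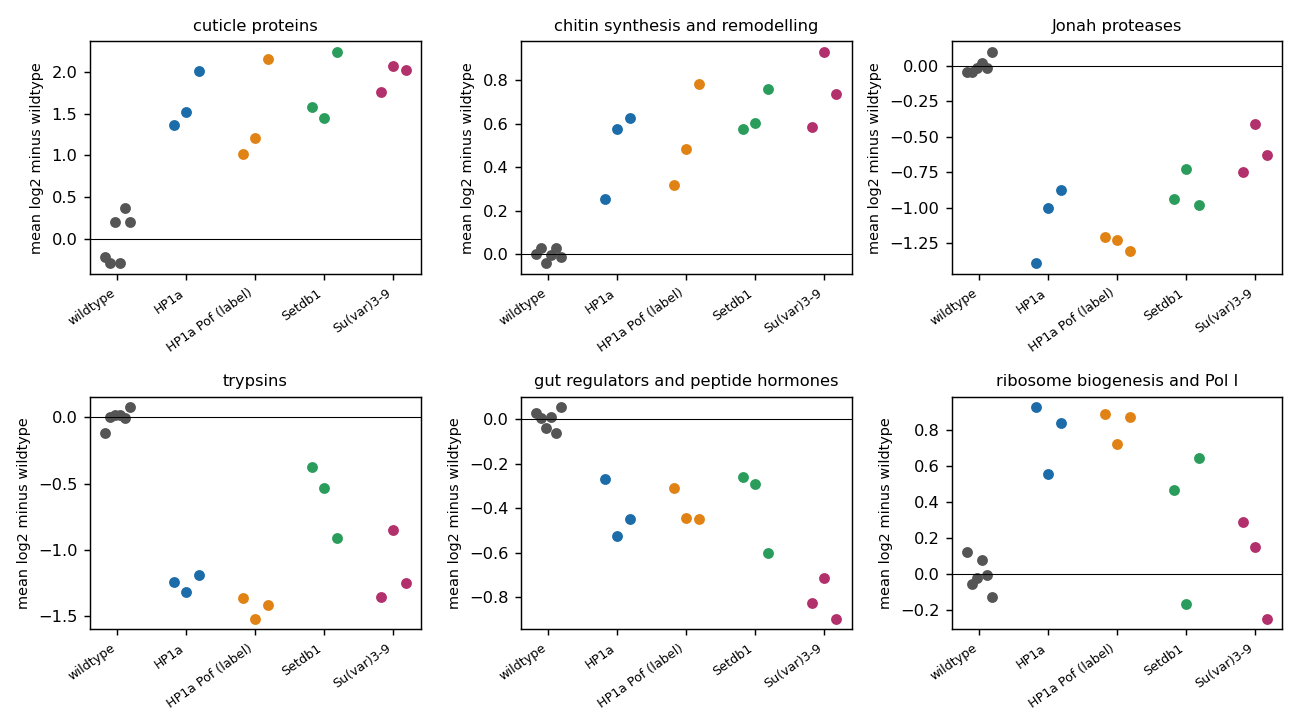
Mean log2 level of 6 gene lists on each array minus the wildtype mean (y axis, log2), with 1 point per array and genotype on the x axis. Cuticle means of mutant arrays lie between 1.02 and 2.24 and Jonah protease means between -1.39 and -0.41, both apart from wildtype, whereas ribosome biogenesis means of mutants run from -0.25 to 0.93.

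Most detoxification genes fell. Over 4 lists, 106 of 143 tested genes were called lower and 25 higher, against 44% and 24.3% of all tested genes, with a median of -0.52 against -0.10. Differences among the mutant genotypes were called for 108 of the 143, against 53.5% of all tested genes. Of 63 cytochromes P450 45 were called lower, of 32 glutathione transferases 26, of 29 UDP-glycosyltransferases 22, and of 19 zinc transporters and metallothioneins 13. Under the random block these counts were 22, 12, 15 and 3, and after centring 39, 22, 21 and 7. Cyp6w1 fell by 3.03, 2.87, 1.75 and 3.60 in HP1a, HP1a Pof, Setdb1 and Su(var)3-9 mutants, GstT4 by 2.06, 2.19, 1.53 and 1.47, and Ugt37A2 by 2.71, 3.36, 1.95 and 2.46. The metallothionein gene MtnB rose by 1.67 ± 0.19, with 3.21 in Setdb1 mutants, and was not called with genotype as a random block (adjusted p = 0.0672).

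Ribosome biogenesis was a pooled change that was not common to the genotypes. Of 24 genes 20 were called higher (median 0.55), against 24.3% of all tested genes. But 2 were called higher in all 4 genotypes, against 8.18% of all tested genes, and 0 by limma with genotype as a random block. The medians were 0.88, 0.90, 0.35 and 0.02 in HP1a, HP1a Pof, Setdb1 and Su(var)3-9 mutants. Fib, the nucleolar methyltransferase fibrillarin, rose by 0.86 ± 0.12, with 1.14, 1.20, 0.66 and 0.44 by genotype (adjusted p of limma's F test 0.0109). Of 26 nutrient and insulin genes 14 were called lower and 4 higher, against 44% and 24.3% of all tested genes, or 6 and 0 by limma under the random block. Their median was -0.16 against -0.10, and -0.038 after centring. Pepck2, of gluconeogenesis, fell by 2.40 ± 0.19.

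Markers of other cell types were read for composition. Of 17 haemocyte genes 10 were called lower and 5 higher (median -0.41), against 44% and 24.3% of all tested genes. Under the random block the counts were 5 and 2. The summed level of the haemocyte genes, on the log2 scale, ran from 14.37 to 14.503 in wildtype and from 14.45 to 14.95 in mutants. NimC3, a receptor of phagocytes, fell by 1.72 ± 0.09, while the collagen gene Col4a1 rose by 0.87 ± 0.04. Of 11 tracheal genes 6 were called higher and 1 lower. Among the 6 were verm, serp, obst-A and Gasp, which are also in the chitin list. The summed level of the tracheal genes ran from 13.03 to 13.24 in wildtype and from 14.06 to 15.07 in mutants.

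Muscle, fat body and neuronal markers were read in the same way, beside 24.3% called higher and 44% lower of all tested genes. Of 17 muscle genes 5 were called higher and 3 lower (median 0.07), or 11 and 2 after centring and 0 and 1 by limma under the random block, and the summed level ran from 15.98 to 16.23 in wildtype and from 16.20 to 16.44 in mutants. Of 12 fat body genes 4 were called higher and 5 lower, or 1 and 1 under the random block, with sums of 15.05 to 15.12 and 15.00 to 15.21. Of 25 neuronal genes 7 were called higher and 4 lower, or 11 and 4 after centring and 2 and 1 under the random block, with sums of 13.59 to 13.87 and 12.81 to 14.23. Leaving out wildtype array D or F gave 3 muscle genes called higher, and leaving out HP1a array A or Su(var)3-9 array A gave 7 or 8 neuronal genes called lower. The part of tissue composition in the cuticle and gut changes was not tested.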

How the data were processed

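The deposited values are log2 signals of 18952 probe sets on each array, made with RMA per the submitters' processing notes. The sources used here give no version or settings of RMA and no genome build, and the array medians ran from 5.93 to 6.03. Per the labels' protocols, RNA was isolated with TRIzol and an RNeasy kit and carried a biotin label. Of the probe sets, 183 were controls, 13647 named 1 gene, 402 several and 4720 none in the platform annotation, and 13544 were matched to RefSeq symbols, giving 11894 genes. The probe set with the highest mean stood for a gene. Genes with fewer than 3 arrays at log2 6 were not tested, which left 8194.

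The 5 groups entered 1 linear model in limma 3.58.1 (R 4.3.3) with moderated variances and 13 residual degrees of freedom. P-values were adjusted by the Benjamini-Hochberg method over all tested genes, and the call was at 0.05. Control probe sets were compared by exact two-sided permutation tests in SciPy 1.17.1. The bacterial controls were added to those tests after the arrays had been read. On simulated data of 8194 genes, 200 of them changed, the pooled test recovered 78.7% of changes of 0.5, 92.9% of 1 and 98.6% of 2, with 6 false calls. In the real data 68.2% of tested genes were called, far more than were changed in the simulation. Its rates therefore do not give the error of the calls made here.

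The 40 lists and the comparison were chosen with earlier results of these data known. Named by rule were the targeted genes with a probe set of their own, the 10 largest rises and falls called in all 4 genotypes with no overlap of arrays, the 5 most even rises and falls of at least 1, the 5 largest F among called changes of at least 1, and up to 4 members of each list. Other genes were named after their values were seen. Replicate letters were checked for pairing. Residual correlations of same-letter mutant and wildtype arrays were all positive, from 0.03 to 0.44, with Su(var)3-9 B and C under 0.1. Arrays of different letters were not compared, so this check cannot decide whether the letters mark pairs. The main fit left the letters out, and a replicate block was run as an alternative. Of 456 genes with several tested probe sets, 75 had changes more than 1 apart and 66 had calls of opposite sign. The planned description of promoter motifs was not run, and no sequence is shown. Alternatives covered the filter, centring, probe sets, array weights, robust variances, the genotype and replicate blocks, the wildtype set, each array and each genotype.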

Additional observations from a re-analysis of the deposited data

Results flagged for a closer look

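The wildtype arrays of 171 named genes were searched for a single array far from the other 5, and 8 were found, where chance flags about 1 in 20 groups. Wildtype array A was high for BomS5 (5.71) and Kr (5.35) and low for CG6839 (11.77), Gasp (11.23) and kappaTry (9.94). Array B was high for Mal-A1 (8.81). Array F was high for Cht9 (12.78) and low for dl (7.70).

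Genes called higher in one mutant genotype and lower in another included lectin-24A, with the F among genotypes at 432.46, Pof at 16.77 and Mlp60A at 29.72. In order of HP1a, HP1a Pof, Setdb1 and Su(var)3-9 mutants, lectin-24A changed by -1.59, -1.49, -4.86 and 0.34 and Mlp60A, a muscle LIM protein, by 1.65, 1.60, 1.69 and -0.62.

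Signals outside the gene tests were read as well. Of 1265 bright probe sets without a single gene name, 101 (7.98%) had all mutant arrays above all wildtype arrays and 183 (14.5%) below, against 6.72% and 20.4% of tested genes. The thr control difference of 2.43 is the value given with the other bacterial controls. Lsp2, below the filter, read 11.57 on Su(var)3-9 array C.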

How the results depend on the processing

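Under a filter at log2 8, 1294 genes were called higher. With genotype as a random block (correlation 0.53) 430 were called higher and 1349 lower, and 72 of 171 named genes were not called, although 9 of the 10 largest rises and all 10 largest falls were. Centring each array gave 1141 genes called higher in all 4 genotypes, 972 with all mutant arrays above and 1065 with all below wildtype. Without the Su(var)3-9 genotype 830 genes had all mutant arrays above wildtype. The genotypes differed for 2704 genes without Su(var)3-9 arrays B and C and for 2758 at an adjusted p under 0.01. The trypsin median was -1.20 with no filter, -1.25 without HP1a Pof and -1.65 without Setdb1, and the P450 median -0.32 with no filter. The median of 2 lysozymes turned to 0.11 with no filter, of fat body genes to 0.00 after centring and of germline genes to -0.42 at a filter of log2 8, and Sxl to -0.038 on the mean of its probe sets. The pooled change of Pof, never called, ran from -0.27 to 0.17 over all alternatives; sign changes of genes called under neither setting were left out of the reversals, a choice made after the results were seen.

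Leaving out 1 array at a time gave 1817 to 2159 genes called higher and 3436 to 3728 lower, 590 to 710 and 1617 to 1872 in all 4 genotypes, 3580 to 4685 differing among genotypes, and 551 to 677 with all mutant arrays above and 1684 to 1843 below wildtype. List medians ran from 1.82 to 2.10 for cuticle proteins, -1.50 to -1.40 for trypsins and -0.64 to -0.56 for P450. Same-letter arrays entered as a replicate block gave 1583 genes called higher and 3362 lower, and 5 named genes were not called. The cause of these shifts was not tested. Dim genes, near the array's lower limit, have compressed changes.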

Other observations

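A few groups of genes were noticed only after their values were seen and are given without a test of the group. Of 19 tested genes with symbols from CG13040 to CG13069 on chromosome arm 3L, 18 were called higher, from 0.69 for CG13042 to 2.89 for CG13049, and 9 had all mutant arrays above all wildtype arrays. All 4 tested Vajk genes were called higher, with Vajk1 at 3.09 ± 0.31 (SE) and Vajk4 at 2.32 ± 0.27. The share of all tested genes called higher was 24.3%.

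The 8 tested Npc2 genes, which encode lipid-binding proteins related to the sterol carrier NPC2, split by member. Npc2c, Npc2d, Npc2e and Npc2f fell by 1.63, 2.11, 1.25 and 1.78, while Npc2b, Npc2g and Npc2h rose by 0.50, 1.11 and 1.32. Npc2a changed by -0.09 and was not called. Of 9 Jhbp genes, which encode proteins related to juvenile hormone-binding proteins, 6 were called higher and 2 lower, from 2.37 for Jhbp12 to -1.15 for Jhbp6.

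Among circadian clock genes, vri and tim were lower on all mutant arrays. The level of vri spanned 8.68 to 9.41 (median 9.20) in wildtype and 5.95 to 8.06 (median 7.35) in mutants, a change of -1.88 ± 0.20. The level of tim spanned 6.26 to 6.64 (median 6.38) and 5.12 to 5.45 (median 5.31), a change of -1.14 ± 0.06. Pdp1 changed by 0.14, 0.32, -0.08 and -1.85 in HP1a, HP1a Pof, Setdb1 and Su(var)3-9 mutants, and cwo was not called in the pooled contrast (0.03). The hour of collection is not given in the labels.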
